A study of Brassica napus and Camelina sativa and Thlaspi arvense with 24 samples.

Results

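Subgenome 1 of *Camelina sativa* was taken as all genes whose identifier places them on the chromosomes Csa04, Csa07, Csa08, Csa11, Csa14 or Csa19 in the deposited expression table of the line DH55. The rule selected 27977 of 88876 listed genes (31.5%), and it used no expression value. The other 14 chromosomes hold 56780 genes, of which 26860 belong to subgenome 2 (Csa01, Csa03, Csa06, Csa10, Csa13, Csa16 and Csa18) and 29920 to subgenome 3 (Csa02, Csa05, Csa09, Csa12, Csa15, Csa17 and Csa20), as the genome is usually divided. A further 4119 genes lie on unplaced scaffolds. The study sequenced RNA of 3 Brassicaceae oilseed crops, and the 6 libraries used here are 3 biological replicates of the first true leaves and 3 of the cotyledons of DH55, a single *C. sativa* genotype. Both tissues came from untreated seedlings grown in a growth chamber for up to 2 weeks and were taken when fully expanded. The values are TPM, a transcript abundance corrected for transcript length and scaled to a total of 1000000 in each library, so the sequencing depth behind a value is unknown and no counting interval can be given. Because whole organs were used, fewer cells of a type and less RNA per cell cannot be told apart.

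*C. sativa* is a hexaploid, so most genes that are single in *Arabidopsis thaliana* occur as a set of homeologous copies, one per subgenome. Such copies can be expressed to different extents, and in many polyploid crops one subgenome is expressed above the others. Cotyledons are embryonic leaves that store seed reserves and turn green after germination, while true leaves are made by the shoot meristem and take over photosynthesis.

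Before the comparisons, 1 stretch of subgenome 1 stood apart. At the end of Csa04, the 611 genes between Csa04g058080 and Csa04g068180 (14.5% of the genes of the chromosome) were expressed in some libraries and close to silent in others, and this did not follow the tissue. Genes with at least 1 TPM in the segment numbered 53 in leaf 1, 34 in leaf 2 and 313 in leaf 3. In the cotyledons they numbered 40 in cotyledon 1, 289 in cotyledon 2 and 271 in cotyledon 3. The segment thus held a high number of expressed genes in leaf 3, cotyledon 2 and cotyledon 3 and a low number in the other libraries, while the rest of Csa04 had between 1603 and 1609 expressed genes in every leaf library and between 1672 and 1706 in every cotyledon library. The summed level of the segment was 550.1, 399 and 9144 TPM in leaf 1, leaf 2 and leaf 3, and 479, 6299 and 4620 TPM in cotyledon 1, cotyledon 2 and cotyledon 3. Its most abundant gene had 26.1, 1.96 and 1991 TPM in leaf 1, leaf 2 and leaf 3, against 1.56, 1299 and 907 TPM in cotyledon 1, cotyledon 2 and cotyledon 3.

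**Figure D1:**
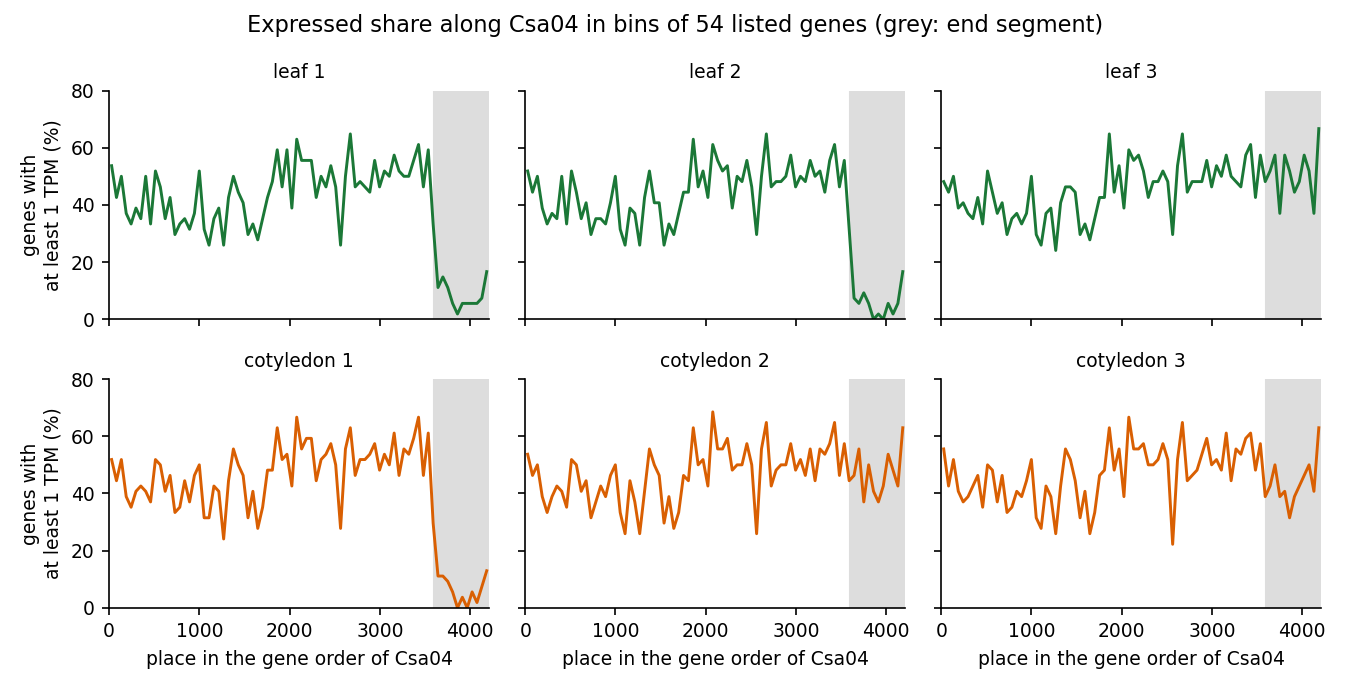
Percent of listed genes with at least 1 TPM along the gene order of Csa04, in bins of 54 genes, with 1 panel per library (leaves in green above, cotyledons in orange below) and the end segment in grey. The line drops in the segment in leaf 1, leaf 2 and cotyledon 1, where 8.67%, 5.56% and 6.55% of its 611 genes had at least 1 TPM, and does not in leaf 3, cotyledon 2 and cotyledon 3.

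Within the segment, 153 genes had at least 5 TPM in leaf 3. Relative to leaf 3, their median level was 0.0214 in leaf 1 and 0.00241 in leaf 2, and it was 0.00392 in cotyledon 1, 0.701 in cotyledon 2 and 0.520 in cotyledon 3. The levels of these genes in cotyledon 2 and cotyledon 3 were thus below those of leaf 3 but far above those of the remaining libraries. The change was sharp along the gene order. Of the 259 segment genes with at least 2 TPM in a library, 86.1% had a lowest library under 0.1 of the highest, against 3.64% of the 1513 such genes before the segment. The start of the segment was placed by this same measure, where it best split the gene order, so the contrast describes the boundary and does not test it. In windows of 50 genes over all 20 chromosomes (740 windows), the largest median deviation of a library from its tissue mean was 1.94 on the log2(TPM + 1) scale and lay in the segment. It was at most 0.14 in the 240 other subgenome 1 windows and at most 0.35 in the 495 windows of the other chromosomes, where the highest value lay at the end of Csa01. Not every gene was close to silent in leaf 1, leaf 2 and cotyledon 1, and in 30 segment genes all 6 libraries reached 1 TPM. The fourth most abundant gene of the segment had 174, 154 and 308 TPM in leaf 1, leaf 2 and leaf 3. It had 214, 334 and 265 TPM in cotyledon 1, cotyledon 2 and cotyledon 3, so it too was lowest in leaf 1, leaf 2 and cotyledon 1. In the segment, 189 genes reached 1 TPM in leaf 3, cotyledon 2 and cotyledon 3 and in no other library, and 0 genes had the reverse. No gene of the segment passed the test for leaf against cotyledon described further on (limma, 0 of 232 tested, with 1 at an unadjusted p under 0.05). Libraries of 1 tissue differ so widely in the segment that this test could hardly pass a gene, so it does not bear on tissue effects there. The segment was bounded after its values were seen, and what sets these libraries apart was not tested. Results are therefore also given without it where it moves them.

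To see how much of subgenome 1 is in use, genes with at least 1 TPM were counted as expressed. In the leaves, 45.4%, 45.0% and 46.3% of subgenome 1 genes were expressed in leaf 1, leaf 2 and leaf 3, against 48.2%, 48.2% and 48.0% in cotyledon 1, cotyledon 2 and cotyledon 3. All 3 leaf libraries lay below all 3 cotyledon libraries, with means of 45.5% ± 0.668 in leaves and 48.1% ± 0.0941 in cotyledons (SD, n = 3 each). The difference was -2.57 percentage points (exact two-sided permutation test, p = 0.1, the smallest that 3 against 3 libraries allow). Without the Csa04 end segment the means were 46.1% ± 0.185 in leaves and 48.5% ± 0.558 in cotyledons (SD, n = 3 each). That difference was -2.38 percentage points (exact permutation test, p = 0.1). The other chromosome genes had 46.1% ± 0.220 in leaves and 48.4% ± 0.536 in cotyledons (SD, n = 3 each). In 11332 subgenome 1 genes (40.5%, or 41.3% without the segment) every library reached 1 TPM, compared with 41.2% of the other chromosome genes. A further 5960 subgenome 1 genes (21.3%) were listed at 0 in all 6 libraries, compared with 21.9% of the other chromosome genes.

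Within each library, the expressed share of subgenome 1 was set against that of the other chromosome genes. The difference was -0.832, -0.822 and 0.118 percentage points in leaf 1, leaf 2 and leaf 3, and -0.856, 0.0261 and -0.0537 percentage points in cotyledon 1, cotyledon 2 and cotyledon 3. Subgenome 1 was thus lower by a similar amount in leaf 1, leaf 2 and cotyledon 1 and close to the other genes in the remaining libraries. The mean of -0.403 did not pass the exact sign-flip permutation test over the 6 libraries (p = 0.188). With the unplaced genes counted among the other genes it was 1.03 percentage points (exact sign-flip permutation test, p = 0.031). Without the Csa04 end segment the mean was 0.0333 percentage points, of the opposite sign (exact sign-flip permutation test, p = 0.0938). The other subgenomes lay on either side of subgenome 1. Subgenome 1 had a lower expressed share than subgenome 2 in 6 of 6 libraries, by -1.94 ± 0.516 percentage points (SD, n = 6 libraries), and a higher one than subgenome 3 in 6 of 6, by 0.974 ± 0.457 (exact sign-flip permutation test, p = 0.031 for both, the smallest that 6 libraries allow). Without the segment these differences were -1.50 ± 0.0863 and 1.41 ± 0.0969 percentage points.

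**Figure D2:**
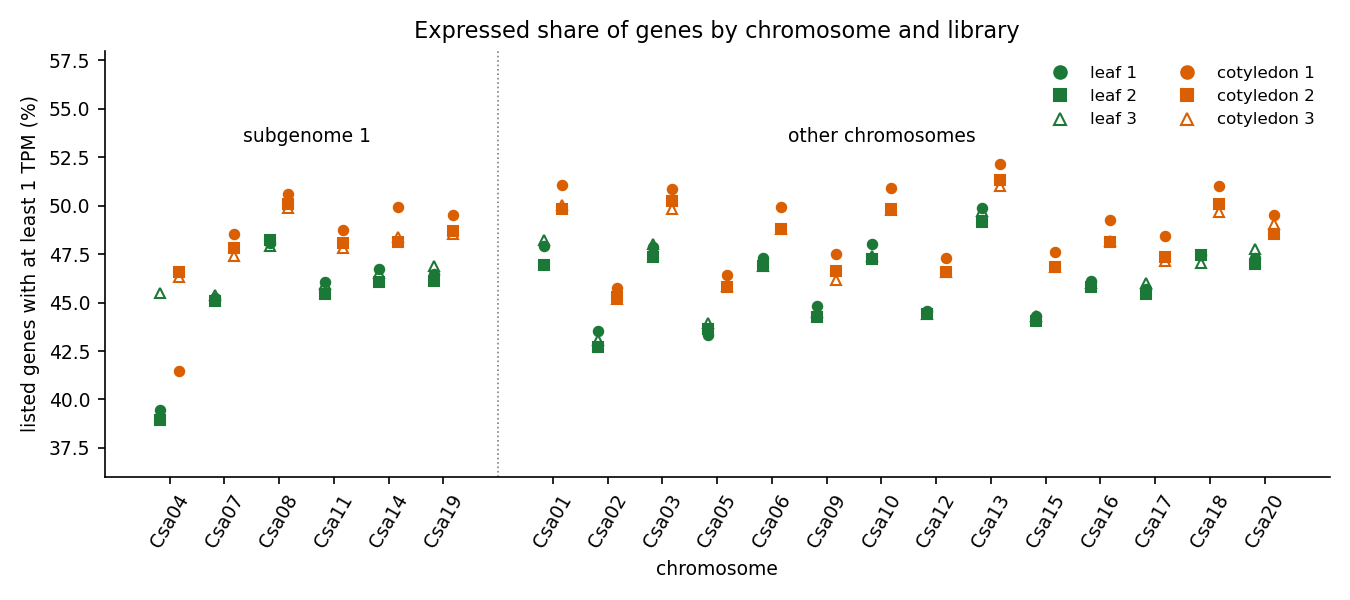
Percent of listed genes with at least 1 TPM per chromosome and library, with subgenome 1 left of the dotted line, leaves in green and cotyledons in orange, and the axis starting at 36%. Csa04 spreads from 38.9% to 46.6% over its 6 libraries, whereas the libraries of 1 tissue differ by at most 1.80 percentage points on each of the other 19 chromosomes.

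By chromosome, Csa08 had the highest expressed share of subgenome 1, with 48.1% ± 0.142 in leaves and 50.2% ± 0.362 in cotyledons (SD, n = 3 each). Csa07, Csa11, Csa14 and Csa19 had mean shares between 45.2% and 46.5% in leaves and between 47.9% and 48.9% in cotyledons. On each of these 5 chromosomes every leaf library lay below every cotyledon library, as on each of the other 14 chromosomes. Csa04 was lower and more variable, with 39.5%, 38.9% and 45.5% in leaf 1, leaf 2 and leaf 3 and 41.5%, 46.6% and 46.3% in cotyledon 1, cotyledon 2 and cotyledon 3. Its leaf and cotyledon libraries overlapped. Before the end segment, Csa04 had 44.6% ± 0.0848 in leaves and 46.8% ± 0.499 in cotyledons (SD, n = 3 each). The means of the other 14 chromosomes ran from 43.1% to 49.6% in leaves and from 45.4% to 51.5% in cotyledons, so the subgenome 1 chromosomes other than Csa04 lay within that range.

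Expression was uneven along each chromosome. When the gene order was divided into 20 equal parts, the mean expressed share was lowest near the middle of the order on Csa08 (34.1% in part 9), Csa11 (32.3% in part 11) and Csa07 (38.2% in part 8), and in part 14 on Csa14 (40.6%) and Csa19 (34.6%). The highest shares were 62.7% in part 2 of Csa08, 64.6% in part 4 of Csa19, 59.3% in part 4 of Csa14, 59.1% in part 17 of Csa07 and 59.1% in part 20 of Csa11. On Csa07 the last part was nearly as low as the lowest, at 38.7%. Within a part, the 6 libraries differed by at most 7.98 percentage points on these 5 chromosomes, against up to 47.9 on Csa04.

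Subgenome 1 genes held less transcript than their number would give. They made up 33.0% of all chromosome genes and held 30.6%, 30.7% and 31.4% of the TPM of all chromosome genes in leaf 1, leaf 2 and leaf 3, against 30.3%, 30.5% and 30.3% in cotyledon 1, cotyledon 2 and cotyledon 3. The share of all TPM, unplaced genes included, was 29.8%, 29.98% and 30.7% in the leaves and 29.7%, 29.9% and 29.7% in the cotyledons, in the same order of replicates. Every leaf library lay above every cotyledon library in the share of chromosome TPM, by 0.505 percentage points on average (exact permutation test, p = 0.1, the smallest possible). The sign of this small excess depended on very abundant genes. When the top 10 genes of each library were removed the difference was -1.05 percentage points (exact permutation test, p = 0.3), and without all 16 genes that ranked among those 10 in any library it was -0.334 (p = 0.3). Of these 16 genes 6 belonged to subgenome 1. The top 10 genes differed between libraries and held 5, 5 and 4 subgenome 1 genes in leaf 1, leaf 2 and leaf 3. In cotyledon 1, cotyledon 2 and cotyledon 3 they held 3, 2 and 3, so the first removal took more subgenome 1 genes from the leaves. Without leaf 3 the difference with all genes was 0.256 percentage points (exact permutation test, p = 0.2).

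Per listed gene, subgenome 1 had 10.7, 10.7 and 11.0 TPM in leaf 1, leaf 2 and leaf 3 and 10.6, 10.7 and 10.6 TPM in cotyledon 1, cotyledon 2 and cotyledon 3. The other chromosome genes had 11.9 ± 0.0710 TPM in leaves and 11.997 ± 0.0241 TPM in cotyledons (SD, n = 3 each). Subgenome 1 was lower in 6 of 6 libraries, with a mean log2 ratio of -0.16 (exact sign-flip permutation test, p = 0.031, the smallest possible). Without the segment it was -0.14, also in 6 of 6, and with the unplaced genes among the others it was -0.10. Against subgenome 2 alone the log2 ratio was -0.14 ± 0.0278 and against subgenome 3 alone -0.17 ± 0.0303 (SD, n = 6 libraries, exact sign-flip permutation test, p = 0.031 for both). The median gene that entered the tissue test had a mean of 4.75 TPM in subgenome 1 and 4.78 TPM on the other chromosomes. Genes averaging 100 TPM or more were 404 in subgenome 1 (1.44% of its genes) and 871 on the other chromosomes (1.53%), and they held 55.3% of the TPM of subgenome 1 and 59.3% of that of the other chromosomes. The most abundant gene reached a mean of 9059 TPM in subgenome 1 and 18601 TPM on the other chromosomes.

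The transcript share was also compared by chromosome. Csa07 held 7.01%, 7.30% and 7.52% of chromosome TPM in leaf 1, leaf 2 and leaf 3, against 6.31%, 6.30% and 6.41% in cotyledon 1, cotyledon 2 and cotyledon 3. Csa07 was thus higher in every leaf, by 0.938 percentage points. Csa08 held 3.45% ± 0.0360 in leaves and 3.80% ± 0.0461 in cotyledons, and Csa19 held 3.27% ± 0.0662 in leaves and 3.47% ± 0.0270 in cotyledons (SD, n = 3 each), so both were lower in every leaf. These differences were -0.350 percentage points for Csa08 and -0.202 for Csa19. The exact permutation test gave p = 0.1 for each of these 3 chromosomes, or 0.2 after Benjamini-Hochberg adjustment over the 6 chromosomes. On Csa04, Csa11 and Csa14 the leaf and cotyledon libraries overlapped, with differences of 0.0510, 0.0864 and -0.0183 percentage points (exact permutation test, p = 0.8, 0.3 and 0.8). Without its end segment Csa04 differed by 0.0944 percentage points (exact permutation test, p = 0.4). The differences of the other 14 chromosomes ran from -0.577 to 0.832 percentage points, a range that Csa07 alone of the 6 exceeded.

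A single gene carried most of the difference on Csa07. It had 9466, 12829 and 14287 TPM in leaf 1, leaf 2 and leaf 3, against 5705, 5228 and 6836 TPM in cotyledon 1, cotyledon 2 and cotyledon 3. Its mean excess of 6271 TPM in leaves compared with 8986 TPM for the whole chromosome. On Csa11 another gene had 3847, 6512 and 5454 TPM in the leaves and 1375, 1611 and 1649 TPM in the cotyledons, an excess of 3726 TPM, while the leaf minus cotyledon difference of all other Csa11 genes together was -3069 TPM. The share of a chromosome's TPM in its 10 most abundant genes was 48.1% on Csa07, 37.1% on Csa04 and between 24.0% and 27.4% on the other 4 chromosomes of subgenome 1. Both genes are known here only by identifier, and were singled out after their values were seen.

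**Figure D3:**
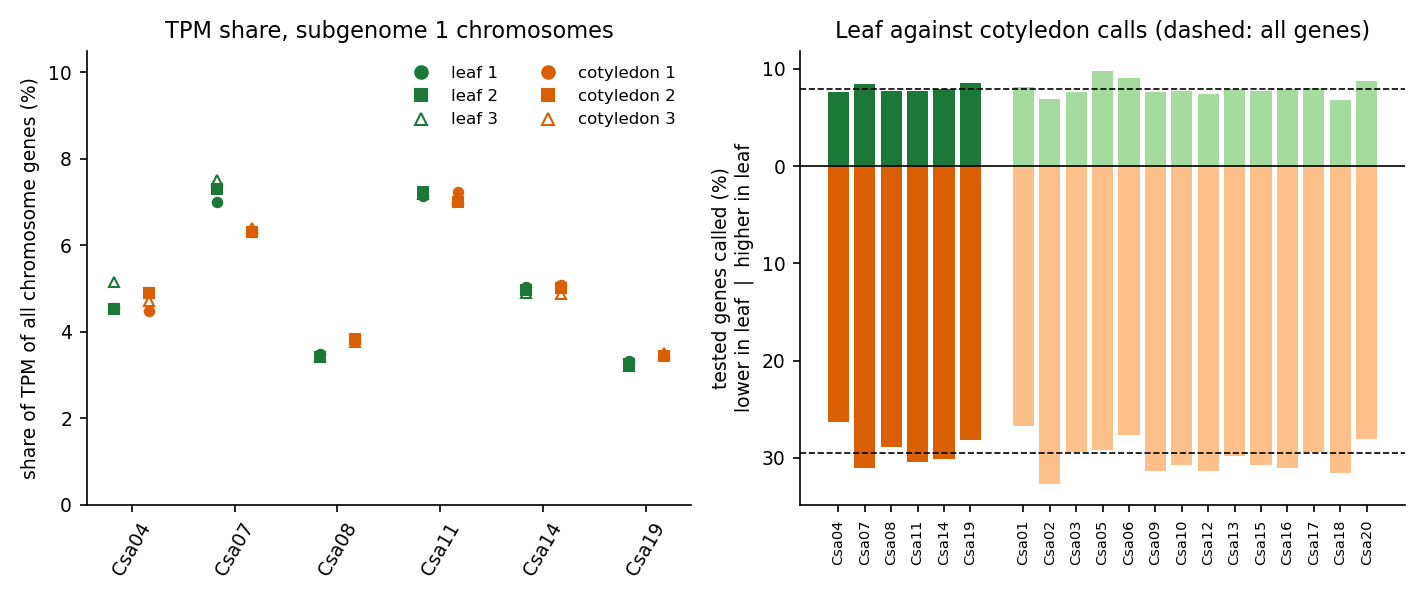
Left: share of the TPM of all chromosome genes held by each subgenome 1 chromosome in each library (leaves in green, cotyledons in orange, axis from 0). Right: percent of tested genes higher in leaf (upward) and lower in leaf (downward) per chromosome, with subgenome 1 in dark colours and dashed lines at 7.97% and 29.5% for all genes. Csa07 is higher in each leaf library, and the subgenome 1 bars of the right panel run from 7.63% to 8.55% upward and from 26.4% to 31.1% downward.

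To test single genes, leaf was compared with cotyledon by limma on log2(TPM + 1) over all *C. sativa* genes that averaged 1 TPM or more, and genes with a Benjamini-Hochberg adjusted p under 0.05 were called. Calls were made for 37.4% of subgenome 1 genes and 37.4% of all genes. Of 13387 subgenome 1 genes tested, 1070 were higher in leaf (7.99%, against 7.97% of all 41797 genes tested) and 3933 were lower (29.4%, against 29.5% of all genes). On the other chromosomes 7.99% were higher and 29.9% lower. The balance of directions depended on the scaling. The median log2 fold change was -0.20 in subgenome 1 and -0.19 over all genes tested, so that a typical gene had a lower TPM in leaf, and after quantile normalization the calls were 1861 higher (all genes 13.9%) and 1763 lower (all genes 13.5%) in subgenome 1. With a log2 fold change of at least 1 in either direction as a further condition, 253 subgenome 1 genes were higher (all genes 2.0%) and 856 were lower (all genes 6.59%). Without the Csa04 end segment 1094 of 13155 were higher and 3980 lower (all genes 3404 and 12441 of 41565). Fewer genes were called higher whichever single library was left out. The count was lowest without leaf 2 (622 of 13470, all genes 1977 of 41982) and highest without cotyledon 1 (1014 of 13296, all genes 3220 of 41495).

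The subgenome 1 chromosomes had similar shares of calls. Genes higher in leaf made up 7.63% of those tested on Csa04, 8.47% on Csa07, 7.72% on Csa08, 7.75% on Csa11, 7.98% on Csa14 and 8.55% on Csa19. Genes lower in leaf made up 26.4% on Csa04, 31.1% on Csa07, 28.9% on Csa08, 30.4% on Csa11, 30.1% on Csa14 and 28.1% on Csa19. The other 14 chromosomes ran from 6.78% to 9.74% for higher and from 26.7% to 32.7% for lower genes. Csa04 was the only one of the 6 outside that range, at the low end for lower genes, and before its end segment it had 30.04%. Csa07, whose TPM share was higher in leaf, did not have a higher share of genes called higher than Csa19, whose TPM share was lower in leaf. Genes that reached 1 TPM in all 3 leaves and in no cotyledon numbered 140 in subgenome 1 (0.5004%), and those that reached it in all 3 cotyledons and in no leaf numbered 408 (1.46%), against 0.541% and 1.46% of the other chromosome genes.

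Identifiers were paired with *A. thaliana* genes through their expression sums, which covered a part of *A. thaliana* chromosome 1. Sets of 2 or 3 copies were sought only on Csa14, Csa03 and Csa17, which fixed their chromosomes, and single copies were sought among all genes. The pairing reached 1515 subgenome 1 genes, and all of them lay on Csa14, so every gene named by its *A. thaliana* counterpart is a Csa14 gene. Of these, 1053 were tested, with 91 higher and 315 lower in leaf, beside 7.97% and 29.5% of all genes. Roles are those known in *A. thaliana*.

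Among unpaired genes, the largest changes past the threshold (mean of at least 10 TPM, no overlap of the tissues) were as follows. Csa19g026880 had 22.4, 32.5 and 17.4 TPM in leaf 1, leaf 2 and leaf 3 and at most 0.307 TPM in a cotyledon (log2 fold change 4.36 ± 0.22 (SE), adjusted p = 0.000433). Csa04g009880, which lies outside the end segment, had 72.8, 54.3 and 15.3 TPM in the leaves and 0.980, 0.660 and 2.02 TPM in the cotyledons (4.24 ± 0.56). Csa19g046260 had 2.998, 1.22 and 2.57 TPM in the leaves and 68.7, 73.4 and 65.9 TPM in the cotyledons (-4.47 ± 0.22). Csa14g002380 also fell, with 0.273, 0.210 and 0.226 TPM in the leaves and 6.60, 26.6 and 28.8 TPM in the cotyledons (-3.90 ± 0.50).

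Among paired genes that averaged 10 TPM or more, the largest rise was that of the copy of AT1G23030 (*PUB11*, a ubiquitin ligase), with 38.1, 36.1 and 16.8 TPM in leaf 1, leaf 2 and leaf 3 against 4.54, 6.68 and 4.18 TPM in cotyledon 1, cotyledon 2 and cotyledon 3 (log2 fold change 2.29 ± 0.32 (SE), limma adjusted p = 0.00356). The copy of AT1G24170, a galacturonosyltransferase-like gene of cell wall synthesis, had 25.7, 28.5 and 16.3 TPM in the leaves and 7.87, 5.91 and 4.88 TPM in the cotyledons (1.75 ± 0.24). The copy of AT1G12090 (*ELP*, an extensin-like protein) had the highest level of these 8 genes, with 159, 213 and 225 TPM in the leaves and 83.5, 75.5 and 67.6 TPM in the cotyledons (1.38 ± 0.16). The absence of overlap between leaf and cotyledon libraries in the genes named so far was a condition of naming them, and 53.7% of all genes tested had none. The copy of AT1G19570 (*DHAR1*, dehydroascorbate reductase, which regenerates ascorbate) rose by 1.44 ± 0.26 and that of AT1G29900 (*CARB*, the large subunit of carbamoyl phosphate synthetase, for arginine and pyrimidines) by 1.43 ± 0.32. Copies of AT1G04040 (an acid phosphatase of the HAD family), AT1G21440 (an isocitrate lyase and phosphoenolpyruvate mutase family member) and AT1G04430 (a methyltransferase family member) rose by 1.47, 1.13 and 1.11. The calls of AT1G04040 and AT1G04430 were lost when some single libraries were left out, with adjusted p between 0.0504 and 0.0575.

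Among the same genes, the largest fall was that of the copy of AT1G09240 (*NAS3*, a nicotianamine synthase, which makes a metal chelator), with 6.60, 1.38 and 5.33 TPM in leaf 1, leaf 2 and leaf 3 against 64.4, 60.2 and 100.4 TPM in cotyledon 1, cotyledon 2 and cotyledon 3 (log2 fold change -3.93 ± 0.45 (SE), limma adjusted p = 0.00184). The copy of AT1G25550 (*HHO3*, a repressor of nitrate-response genes) had 13.5, 7.46 and 7.41 TPM in the leaves and 60.2, 65.3 and 51.3 TPM in the cotyledons (-2.56 ± 0.23). The copy of AT1G05870, a protein of unknown function, had 20.3, 17.8 and 23.3 TPM in the leaves and 90.3, 105.5 and 105.9 TPM in the cotyledons (-2.25 ± 0.13). Copies of AT1G21000 (a PLATZ family transcription factor), AT1G22160 (an FLZ zinc finger protein), AT1G20070 (unknown function) and AT1G23040 (a hydroxyproline-rich glycoprotein) also fell, with log2 fold changes of -2.48, -2.42, -1.79 and -1.72. The remaining gene of the 8, the copy of AT1G18330, belongs to the clock genes below.

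Functional groups were described with 10 lists of *A. thaliana* genes, of which only members with a paired Csa14 copy could be followed. The lists were chosen with earlier results of these data known. Their counts beside the share of all genes are thus a description and not a test of the groups. Of the genes of the photosystems and of light harvesting, 9 of 12 tested copies were higher in leaf and none lower, with a median log2 fold change of 0.49, beside -0.19 over all genes tested and 7.97% of all genes called higher. The most abundant member was the copy of *PSBP1* (oxygen-evolving complex of photosystem II), with 2178, 2193 and 2209 TPM in leaf 1, leaf 2 and leaf 3 against 1505, 1601 and 1432 TPM in cotyledon 1, cotyledon 2 and cotyledon 3 (log2 fold change 0.54 ± 0.06 (SE), limma adjusted p = 0.00204). The copy of *PETE2* (plastocyanin, the electron carrier to photosystem I) had 2188, 2048 and 1993 TPM in the leaves and 1561, 1548 and 1421 TPM in the cotyledons (0.46 ± 0.07). The copy of *PSB27* (photosystem II repair) had 223, 232 and 243 TPM in the leaves and 120, 139 and 78.3 TPM in the cotyledons (1.08 ± 0.21), the largest change of the list. The tissues did not overlap in these 3 genes, as in 53.7% of all genes tested. The copies of *LHCB6* (antenna of photosystem II) and *PORC* (chlorophyll synthesis) rose by 0.80 and 0.91. The copies of *LFNR2*, *FD1* and *PNSB1* did not pass the threshold (0.15, 0.06 and 0.00). After quantile normalization 5 of the 12 were called higher and none lower, with a median of 0.18, and *PSBP1* (adjusted p = 0.0727), *PETE2* (0.234), *PSAK* (0.180) and *PSAO* (0.241) were no longer called. *LHCA6* kept its call only without cotyledon 1 among the fits that left out 1 library (limma adjusted p of the others 0.0535 to 0.0981). With a replicate block it was not called either (0.0851).

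Clock and light signalling genes, a list chosen in the same way, moved in the other direction. In leaf 6 of 6 tested copies were lower, with a median of -0.84, beside 29.5% of all genes called lower. After quantile normalization 3 of them were still lower and none higher. The copy of *LHY* (a morning transcription factor of the circadian clock) had 67.9, 47.0 and 54.5 TPM in leaf 1, leaf 2 and leaf 3 against 118, 143 and 166 TPM in cotyledon 1, cotyledon 2 and cotyledon 3 (log2 fold change -1.32 ± 0.18 (SE), limma adjusted p = 0.00305). The copy of AT1G18330 (*RVE7*, an *LHY*-related factor) had 12.8, 14.4 and 18.3 TPM in the leaves and 48.3, 60.9 and 52.6 TPM in the cotyledons (-1.77 ± 0.16). All leaf libraries were below all cotyledon libraries in both, and both remained called after quantile normalization, as did *PIF3* (a phytochrome-interacting factor, -0.98 ± 0.13). The copies of *GI* (-0.71), *PHYA* (-0.58) and *BBX24* (-0.33) were called in the TPM as deposited and not after quantile normalization. *BBX24* also lost its call whichever single library was left out (limma adjusted p between 0.0675 and 0.129). *GI* lost its call without leaf 2, cotyledon 1 or cotyledon 3, and *PHYA* without cotyledon 2.

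The remaining lists held calls in both directions or few calls, and are to be read beside the 7.97% of all genes called higher and 29.5% called lower. In carbon metabolism and photorespiration 1 of 12 tested copies was higher and 3 were lower, with a median of -0.01, and after quantile normalization 3 were higher and 1 was lower, with a median of 0.11. Its most abundant members were *GGT1* (a photorespiratory aminotransferase), with 496, 482 and 458 TPM in leaf 1, leaf 2 and leaf 3 against 578, 586 and 569.9 TPM in cotyledon 1, cotyledon 2 and cotyledon 3 (-0.27 ± 0.07, limma adjusted p = 0.0230), and *GLDT* (glycine decarboxylase), whose level did not pass the threshold (0.08 ± 0.07). *GGT1* lost its call without leaf 1, leaf 2, leaf 3 or cotyledon 2 (adjusted p between 0.0510 and 0.0743). Of the cytosolic ribosomal proteins 0 of 4 passed in limma (median 0.02, with 0 at an unadjusted p under 0.05), with *RPL19A* at 0.07 ± 0.18 and *RPL10A* at -0.12 ± 0.16. Among histones and cell division genes 1 of 7 was higher, *CYCA2;3* (an A-type cyclin, 0.82 ± 0.18), and 1 was lower, the linker histone *H1.1*, with 35.6, 32.2 and 35.4 TPM in the leaves and 51.1, 58.8 and 50.4 TPM in the cotyledons (-0.62 ± 0.10). *HTA5* (histone H2AX) had -0.34 ± 0.13 and did not pass.

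In hormone signalling and metabolism 1 of 12 tested copies was higher and 4 were lower, with a median of -0.28 (quantile normalization 1 higher and 3 lower, median -0.07). Those lower were *GA3OX1* (gibberellin synthesis, -0.77), *PYL9* (an abscisic acid receptor, -0.77), *AHK3* (a cytokinin receptor, -0.70) and *ARR4* (a cytokinin response regulator, -0.83), and the one higher was *PIN7* (an auxin efflux carrier, 0.39). *PIN7* kept its call only without leaf 1 among the fits that left out 1 library (adjusted p of the others 0.0522 to 0.110), and *ARR4* lost its call in 4 of these 6 fits (0.0848 to 0.114) and after quantile normalization (0.103). The most abundant members, *ACO4* (the last step of ethylene synthesis, -0.39 ± 0.15) and *IAA17* (an auxin response repressor, -0.07 ± 0.15), did not pass. In leaf development and epidermis 2 of 9 were higher and 1 was lower, with a median of -0.08 (quantile normalization 3 higher and 0 lower, median 0.14). The lower copy, that of *TCP24*, lost its call whichever single library was left out (limma adjusted p between 0.0810 and 0.143). The copy of *KCS2* (elongation of very long chain fatty acids for surface lipids) had 24.9, 33.9 and 26.5 TPM in leaf 1, leaf 2 and leaf 3 against 16.5, 8.05 and 14.9 TPM in cotyledon 1, cotyledon 2 and cotyledon 3 (1.101 ± 0.26, limma adjusted p = 0.0191), and *GPAT4* (cutin synthesis) rose by 0.90 ± 0.14. The related *KCS1* had 31.0, 27.1 and 24.8 TPM in the leaves and 22.6, 21.0 and 13.2 TPM in the cotyledons and did not pass (0.55 ± 0.21, adjusted p = 0.0775). *KCS1* did pass after quantile normalization (0.76, adjusted p = 0.0301) and with a replicate block (0.0491), while *KCS2* did not pass without leaf 2 (0.0631) or with the block (0.0508), so no difference between them is drawn. Among stress and detoxification genes 1 of 4 was lower, *CSD1* (a superoxide dismutase), with 149, 139.9 and 137 TPM in the leaves and 243, 251 and 284 TPM in the cotyledons (-0.86 ± 0.09), while the more abundant *GSTU17* (a glutathione transferase) had -0.16 ± 0.12. Of phenylpropanoid and glucosinolate genes 1 of 2 was lower, *CCR1* (lignin synthesis, -0.70 ± 0.11), and *FMOGS-OX5* (glucosinolate side chains) had -0.17 ± 0.15. In the list of seed reserves, embryo and lipid breakdown only *MCCA* (leucine breakdown, 0.21 ± 0.14) was tested and did not pass, and *LEC2* (an embryo transcription factor) had at most 0.0347 TPM in any library. Over all 10 lists 31 copies were called, and 20 of them kept the call whichever single library was left out.

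**Figure D4:**
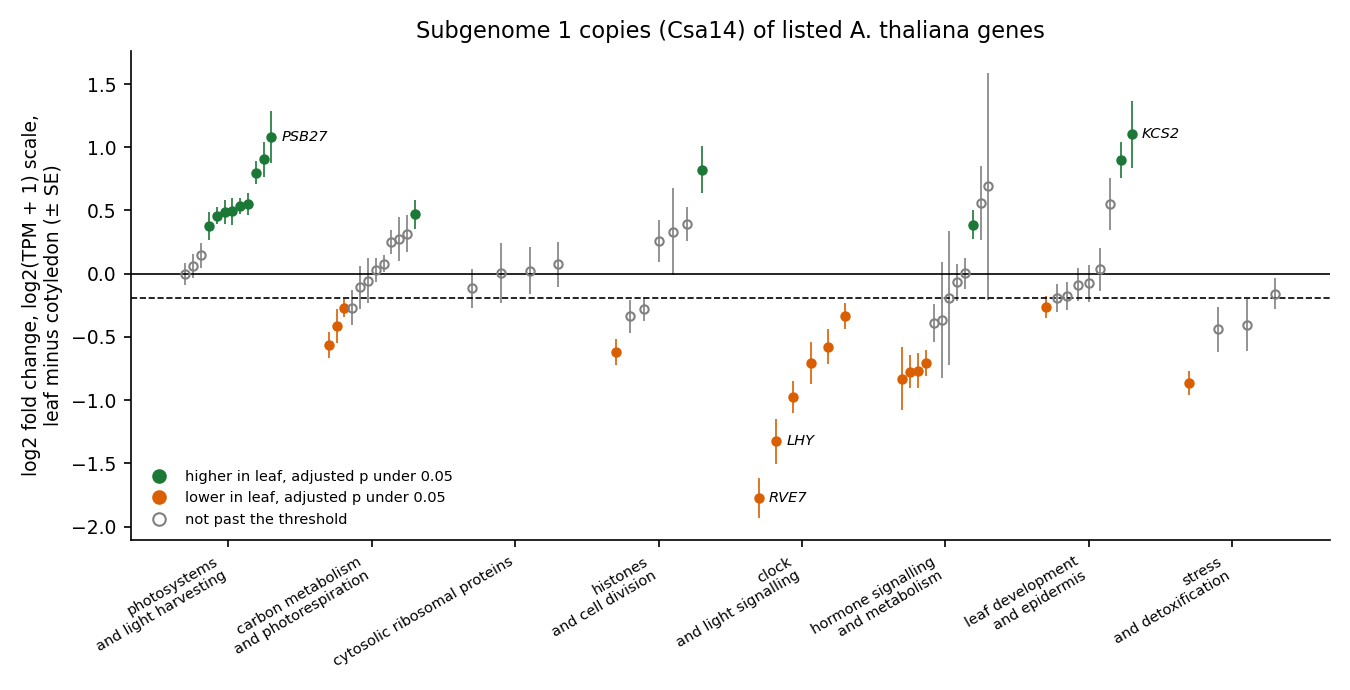
Log2 fold change (leaf minus cotyledon, log2(TPM + 1) scale, bars are SE) of the tested Csa14 copies in the 8 lists with at least 4 of them, filled where the limma adjusted p is under 0.05, with a dashed line at the median of all genes tested. In the photosystem list 9 of 12 copies lie above 0 and are called, and in the clock and light list 6 of 6 lie below 0 and are called.

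To compare the subgenome 1 copy with its homeologs directly, 1260 *A. thaliana* genes with exactly 1 paired copy on Csa14, Csa03 and Csa17 were used as triplets, of which 1100 had a mean sum of at least 1 TPM. The subgenome 1 copies held 33.4%, 33.2% and 33.0% of the summed TPM of these triplets in leaf 1, leaf 2 and leaf 3, and 33.1%, 33.4% and 33.2% in cotyledon 1, cotyledon 2 and cotyledon 3. The subgenome 2 copies held between 31.6% and 31.9% and the subgenome 3 copies between 34.8% and 35.3%. The median share of the subgenome 1 copy was 32.0%, with quartiles of 24.4% and 40.3%. In 526 triplets it lay between 25% and 40%, in 21 it was under 5% and in 3 over 90%. Copies at 0 in all 6 libraries could not be paired, so genes whose copy in a subgenome was silent throughout are not among the triplets. Genes paired only in subgenomes 2 and 3 (120), 1 and 3 (119) or 1 and 2 (98) were left out. On the log2(TPM + 1) scale the median triplet had its subgenome 1 copy 0.03 below the mean of the other copies in 6 of 6 libraries (exact sign-flip permutation test, p = 0.031, the smallest possible). Taken singly, by the same exact test, the difference was -0.05 to the subgenome 3 copy (p = 0.031, lower in 6 of 6 libraries) and 0.00 to the subgenome 2 copy (p = 0.375, lower in 4 of 6). Copies with near-identical transcripts share reads, so how Salmon divided reads between them is part of these values.

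Single triplets differed far more than the median. By limma over the triplets, the subgenome 1 copy was above the mean of the other copies in 401 (36.5%) and below it in 461 (41.9%). With the subgenome 2 copy in its place the counts were 435 above and 457 below, and with the subgenome 3 copy 485 above and 385 below. The subgenome 1 copy was the highest of the 3 in all 6 libraries in 211 triplets and the lowest in all 6 in 234, while the subgenome 2 copy was highest in 198 and lowest in 240 and the subgenome 3 copy highest in 221 and lowest in 157. With a log2 difference of at least 1, 88 subgenome 1 copies were above and 67 below.

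**Figure D5:**
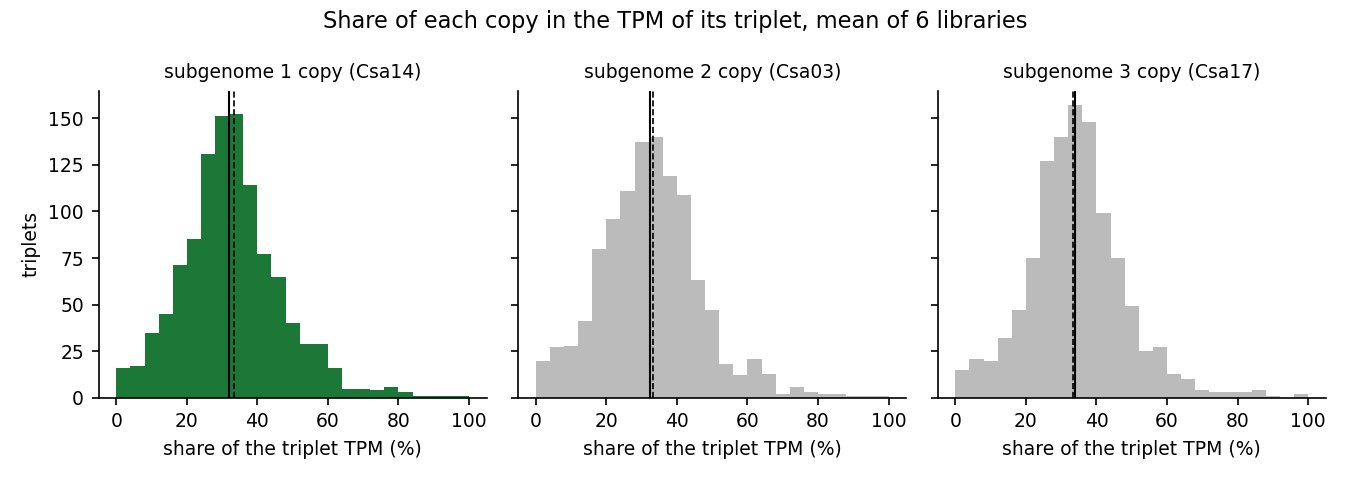
Number of triplets by the share of each copy in the triplet's TPM (mean of 6 libraries, 1100 triplets), for the subgenome 1, subgenome 2 and subgenome 3 copies. The solid line is the median (32.0%, 32.2% and 33.9%) and the dashed line an equal share (33.3%), and the subgenome 1 copies spread from near 0 to over 90%.

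On the log2(TPM + 1) scale, the subgenome 1 copy furthest above its homeologs was that of AT1G21400 (an E1 subunit of branched-chain keto acid dehydrogenase, for amino acid breakdown), with 26.2 ± 7.39 TPM against 1.55 ± 0.403 TPM for the subgenome 2 copy and 2.08 ± 1.75 TPM for the subgenome 3 copy (SD over 6 libraries). It held 87.8% of the triplet (log2 difference 3.32 ± 0.10 (SE), limma adjusted p = 9.56e-09). The copy of AT1G06820 (*CRTISO*, carotenoid isomerase) had 38.6 ± 2.52 TPM, against 10.1 and 1.52 TPM for the subgenome 2 and subgenome 3 copies (2.93 ± 0.07). Both genes were thus expressed mainly from subgenome 1. The copy of AT1G06550 (an enoyl-CoA hydratase family member) held 83.1% of its triplet and that of AT1G05010 (*ACO4*, ethylene synthesis) 58.7%. This *ACO4* copy had 95.8 TPM, beside 4.35 TPM for the subgenome 2 and 63.0 TPM for the subgenome 3 copy.

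On the same scale, the copy furthest below was that of AT1G31190 (*IMPL1*, a chloroplast inositol monophosphatase), listed at 0 in 5 of 6 libraries and at 0.431 TPM in leaf 2, against 17.9 ± 2.02 TPM for the subgenome 2 copy and 18.5 ± 2.51 TPM for the subgenome 3 copy (SD over 6 libraries, log2 difference -4.17 ± 0.10 (SE), limma adjusted p = 3.88e-09). The copy of AT1G03870 (*FLA9*, a cell wall arabinogalactan protein) held 4.33% of its triplet, that of AT1G25260 (a ribosomal L10 family member) 1.53% and that of AT1G08630 (*THA1*, threonine aldolase) 4.41%. In these genes nearly all transcript came from the other subgenomes. Of the photosynthesis genes, *PSBP1* had 31.0% of its triplet in subgenome 1, *LHCB6* 21.3% and *PSAK* 41.1%, so members of one apparatus did not share a division among copies. The copy of *KCS2* held 53.1%, with 18.3 TPM in the subgenome 2 copy and 0.0632 TPM in the subgenome 3 copy.

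Of 762 triplets with all 3 copies tested, no copy was called for leaf against cotyledon in 330. All 3 copies were higher in leaf in 38 and all 3 lower in 135, the subgenome 1 copy alone was called in 50, and in 3 it was called against another copy called the other way. Calls were 66 higher and 235 lower for the subgenome 1 copies, 70 and 226 for subgenome 2 and 73 and 226 for subgenome 3. No count is given for the subgenome 2 or subgenome 3 copy alone, so the 50 is not to be read as a trait of subgenome 1. The median effect was -0.18 for subgenome 1, -0.18 for subgenome 2 and -0.16 for subgenome 3. Tested directly as the tissue term in the 1100 triplets, the effect of the subgenome 1 copy differed from the mean of the others in 111 (10.1%), above it in 47 and below it in 64. This count was lower when a single library was left out, at 51 without cotyledon 2, 59 without leaf 2, 62 without cotyledon 3, 65 without leaf 1, 66 without cotyledon 1 and 89 without leaf 3.

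The subgenome 1 copy of AT1G19570 (*DHAR1*) had 34.5 ± 11.2 TPM in leaves and 11.8 ± 2.38 TPM in cotyledons, whereas its subgenome 2 copy had 61.6 TPM in leaves and 56.0 TPM in cotyledons and its subgenome 3 copy 138 TPM in leaves and 155 TPM in cotyledons (SD, n = 3 each). The difference in log2 fold change was 1.45 ± 0.17 (SE, limma adjusted p = 0.00329). The subgenome 1 copy of AT1G21400 had 32.7 ± 0.212 TPM in leaves and 19.7 ± 3.12 TPM in cotyledons, while its subgenome 2 copy had 1.79 TPM in leaves and 1.31 TPM in cotyledons and its subgenome 3 copy 0.818 TPM in leaves and 3.35 TPM in cotyledons (1.17 ± 0.20, adjusted p = 0.00992). In the opposite direction, the subgenome 1 copy of AT1G09795 (*HISN1B*, the first step of histidine synthesis) had 1.84 ± 0.192 TPM in leaves and 3.26 ± 0.333 TPM in cotyledons, whereas its subgenome 2 copy had 7.96 ± 1.94 TPM in leaves and 3.90 ± 1.31 TPM in cotyledons and its subgenome 3 copy 10.2 ± 1.45 TPM in leaves and 6.30 ± 2.25 TPM in cotyledons (-1.36 ± 0.22). The subgenome 1 copy of AT1G18710 (*MYB47*, a transcription factor) had 1.47 ± 1.11 TPM in leaves and 9.68 ± 2.23 TPM in cotyledons. Its subgenome 3 copy had 3.30 ± 1.95 TPM in leaves and 19.5 ± 6.26 TPM in cotyledons and its subgenome 2 copy 4.24 ± 2.75 TPM in leaves and 2.28 ± 1.26 TPM in cotyledons (-1.33 ± 0.15), so the subgenome 1 and subgenome 3 copies were both lower in leaf.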

How the data were processed

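RNA of 3 leaf and 3 cotyledon samples of DH55 was sequenced. Per the labels and the methods of the study, the authors trimmed reads with Trimmomatic (0.32), quantified transcripts with Salmon (1.10.0) against the *C. sativa* transcriptome and deposited gene-level TPM values. No counts were used here, and the replicates are biological samples of 1 genotype. Genes were assigned to chromosomes by their identifiers. The members and lists were chosen with earlier results of these data known.

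Leaf was compared with cotyledon by limma (3.58.1, R 4.3.3, mean-variance trend) on log2(TPM + 1) for genes with a mean of 1 TPM or more. Fold changes on this scale understate changes of low genes. Shares and levels were compared by exact two-sided permutation tests over libraries. To name identifiers by *A. thaliana* gene, sets of copies were sought whose TPM fitted the summed values in a supplementary table of the study. Only a part of that table was held. In the fit each library had a factor and each copy a fitted weight, so the match was not to plain sums of TPM. Of 1938 genes read, 1709 were paired. Triplets were tested by limma on the log2 difference between the subgenome 1 copy and the mean of the others.

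Named genes were the 8 paired genes with the largest change in each direction, the 2 unpaired ones, and the 4 triplets with the largest difference each way (2 for the tissue term), all past the threshold, with gene means of at least 10 TPM and no overlap of tissues for single genes. List members were named by abundance or change. Alternatives were a pseudocount of 0.1, other filters, quantile normalization, a replicate block and each library left out. The limma fits were checked on simulated data.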

Additional observations from a re-analysis of the deposited data

Results flagged for a closer look

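The effect of tissue differed between the subgenome 1 copy and the mean of its homeologs in 111 of 1100 triplets (limma on the within-triplet difference, 276 at an unadjusted p under 0.05). With the subgenome 2 copy in its place the count was 105, and with the subgenome 3 copy 95.

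Among these, the leaf minus cotyledon effect of the subgenome 1 copy was above that of the other copies by 1.45 on the log2 scale for AT1G19570 (*DHAR1*) and by 1.17 for AT1G21400. The difference was -1.36 for AT1G09795 (*HISN1B*) and -1.33 for AT1G18710 (*MYB47*). For *MYB47* the subgenome 3 copy was lower in leaf as the subgenome 1 copy was, and the subgenome 2 copy had the higher mean in leaf. The cause of these differences was not tested. With 3 libraries per tissue, single libraries were not tested for standing apart.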

How the results depend on the processing

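The main counts were 1070 higher and 3933 lower in leaf of 13387 subgenome 1 genes (3330 and 12310 of all 41797). A mean of at least 5 TPM gave 662 and 2194 of 6461 (2074 and 6799 of all 20198). Quantile normalization gave 1861 and 1763 (all genes 5800 and 5651), and a log2 fold change of at least 1 gave 253 and 856 (all genes 838 and 2755). Leaving out single libraries gave 622 to 1014 higher and 2642 to 3140 lower genes (all genes 1977 to 3220 and 8260 to 9884). A replicate block gave 840 and 2993 (all genes 2692 and 9389). Replicates with the same number did not deviate together (r = 0.19, -0.14 and 0.08 for numbers 1, 2 and 3), and pairs of unlike numbers ran from -0.32 to 0.29. The Csa04 segment moved these values. Without it r was 0.014, 0.039 and -0.078 for the same numbers, and unlike numbers ran from -0.14 to 0.10. The numbers were therefore not taken to pair the samples. The leaf minus cotyledon share of chromosome TPM was -1.05 percentage points without the top 10 genes of each library and -0.33 without every gene in the top 10 of any library, the second chosen after seeing the data, and 0.256 to 0.666 with a library left out. The expressed share relative to other genes was 1.03 percentage points (p = 0.031, exact sign-flip permutation test) with unplaced genes among the others and 0.0333 without the Csa04 segment. The log2 TPM per gene relative to other genes stayed between -0.17 and -0.15 with a library left out, where the smallest possible p is 0.0625, and was -0.10 with unplaced genes among the others. In the triplets, a log2 difference of at least 1 left 88 higher and 67 lower subgenome 1 copies and 14 with another tissue effect. That last count was 67 with a pseudocount of 0.1, 63 with a replicate block and 51 to 89 with a library left out. For 100 named genes and triplets, 1062 recomputed values kept their call, 72 lost it, 8 gained one and 0 changed sign. The cause of these shifts was not tested. Depth is unknown, so its limit on low genes could not be set.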
